A study of Mus musculus with 2 samples.

Results

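The insulin-like growth factor (IGF) axis was followed through 10 genes, which were listed by name: the ligands Igf1 and Igf2, the receptors Igf1r and Igf2r, and the binding proteins Igfbp2 to Igfbp7. Every probe set that names 1 of these genes and no other was used, which gave 28 probe sets. All 10 genes were measured, among 18193 measured genes in all. RNA came from PGK12.1, a line of female mouse embryonic stem cells taken from blastocysts of a 129 mother and a (129 X PGK)F1 father. The undifferentiated group (day 0) was grown with leukemia inhibitory factor on a layer of embryonic fibroblasts, which was depleted on gelatin before collection. The day 15 group was the same line after feeder depletion and 15 days as embryoid bodies, aggregates in which several lineages arise together. Each group was 1 Affymetrix array with biotin-labelled cRNA and 1 line, which leaves the values without replicate error and allows no test between conditions. The arrays were made to follow the X chromosome during differentiation, and none of the 10 genes is X-linked.

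IGF1 and IGF2 are small secreted hormones related to insulin, and both promote growth and survival through the tyrosine kinase receptor encoded by Igf1r. The product of Igf2r binds IGF2 and carries it to lysosomes, so it removes ligand and does not signal as a kinase. The secreted binding proteins hold IGFs in serum and matrix, and proteases cut them to release the ligand. In the embryo Igf2 is expressed from the paternal allele and Igf2r mainly from the maternal allele. These arrays do not separate the alleles.

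The 10 genes had 14 upstream windows in RefSeq (GRCm38.p6), 4 of them for Igf2 and 2 for Igfbp2. The windows that follow are those of Igf2 and Igfbp7, the members with the highest gains, of Igfbp4, whose gain was read by the most probe sets, and of Igfbp2, whose signal was nearly equal on both arrays. Each run holds the 120 bases before a start site, 5′ to 3′ on the gene's strand. Capitals mark GC boxes (GGGCGG or its reverse complement CCGCCC), the TATA motif (TATAAA or TTTATA) and the CCAAT motif (CCAAT or ATTGG).
Igf2, start 4 (chr7:142657497-142657616, minus strand): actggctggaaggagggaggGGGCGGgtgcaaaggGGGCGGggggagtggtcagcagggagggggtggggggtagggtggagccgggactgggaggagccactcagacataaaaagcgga
Igf2, start 3 (chr7:142658805-142658924, minus strand): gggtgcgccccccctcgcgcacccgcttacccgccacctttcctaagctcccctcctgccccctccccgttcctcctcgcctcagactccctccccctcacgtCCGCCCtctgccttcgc
Igfbp7 (chr5:77408046-77408165, minus strand): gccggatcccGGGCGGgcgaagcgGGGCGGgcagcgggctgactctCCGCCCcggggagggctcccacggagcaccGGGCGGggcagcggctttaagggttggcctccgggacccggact
Igfbp4 (chr11:99041124-99041243, plus strand): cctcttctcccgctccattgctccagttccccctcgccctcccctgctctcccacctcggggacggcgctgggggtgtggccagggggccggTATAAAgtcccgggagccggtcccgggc
Igfbp2, start 1 (chr1:72824360-72824479, plus strand): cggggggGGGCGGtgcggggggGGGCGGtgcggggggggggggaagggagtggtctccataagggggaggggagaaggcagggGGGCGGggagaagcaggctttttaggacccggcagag
Within 250 bases upstream, Igfbp7, much higher at day 15, held 4 GC boxes, and Igfbp2, nearly equal on both arrays, held 3 before its start 1. Start 3 of Igf2 had 1 GC box and start 4 had 2, while the other Igf2 windows had 0. Igfbp4 had the TATA motif 28 bases before its start (position -28) and 0 GC boxes. A GC box was present in 32.7% of all 32851 windows of this length, the TATA motif in 12.4% and the CCAAT motif in 33.8%. The windows of Igfbp7 and Igfbp4 held 26 and 22 CpG dinucleotides, those of Igfbp2 held 14 and 11, and those of Igf2, from start 1 to start 4, held 1, 10, 22 and 6, against a median of 6 over all windows. The arrays do not tell which start was used, and a match of letters shows no binding.

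At day 15 the signal was at least 2-fold higher for 8 of the 10 genes and at least 2-fold lower for 0, while Igf2r and Igfbp2 lay between. The same rule called 16.5% of all 11960 genes tested as higher and 8.41% as lower. Calls use log2(signal + 16), which understates the differences of dim genes. The median log2 difference, day 15 minus undifferentiated, was 2.39 over the 10 genes and 0.00052 over all genes tested. The median of the 10 was 1.41 with quantile normalization and 1.28 with scaling on the hybridization controls, where Igfbp5 was read by its other probe set. All 10 genes passed the filter on dim genes (a mean at or above the median probe set, equal to a signal of 36.5). However, Igf1, Igfbp5 and Igfbp6, by the probe sets used for them, were below that level in undifferentiated cells and passed through day 15 alone, so these 3 had to differ. Of the 28 probe sets, 25 read higher at day 15 and 3 lower, while 49.6% of the 34945 probe sets that name 1 gene read higher. Many of the 28 probe sets share a gene and are not independent.

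**Figure D1:**
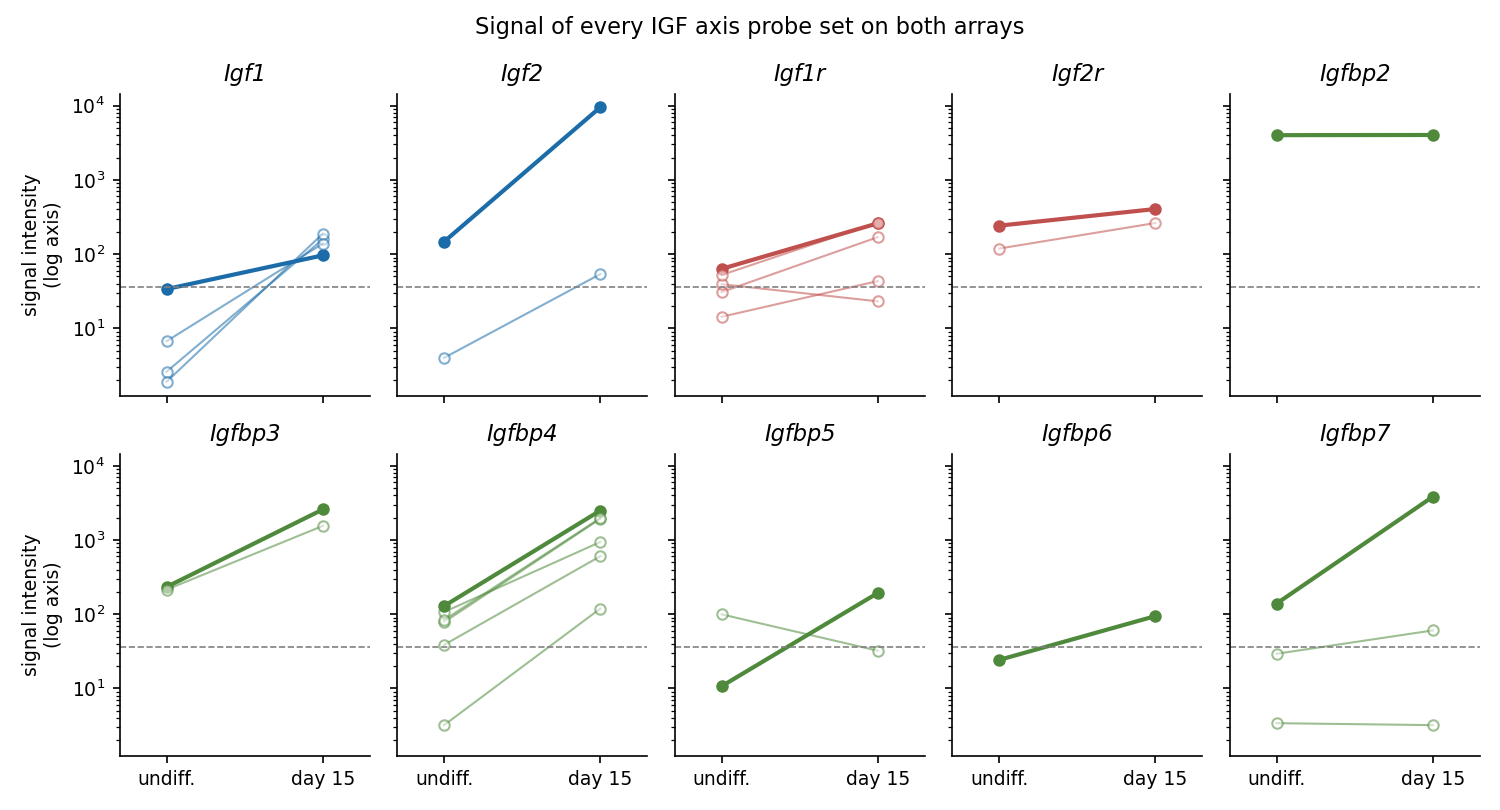
Signal intensity (log axis) of each of the 28 probe sets on the undifferentiated and the day 15 array, 1 panel per gene. Filled points mark the probe set that represents the gene, open points its other probe sets, and the dashed line the highest bacterial control without target (35.6). Lines climb steeply for Igf2, Igfbp3, Igfbp4, the filled set of Igfbp7 and the open sets of Igf1, which start below the dashed line. They are flat for Igfbp2 (4008 and 4031) and cross for Igfbp5.

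A fold below is day 15 signal over undifferentiated signal, or the inverse where day 15 was dimmer. The 15 bacterial control probe sets that had no target on either array reached at most 35.6. A gene below this bound on its dimmer array has a lower limit for its fold, worked out against 35.6 and written as at least N-fold, and a gene below it on both arrays has none.

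Both ligands were higher at day 15. Igf2, the main IGF of the embryo, read 146.9 in undifferentiated cells and 9535 at day 15 with probe set 1448152_at, a 64.9-fold ratio and a log2 difference of 5.87. Only 21 of the 11960 genes tested had a larger difference. Its other probe set, 1415931_at, was dim, at 4.0 and 53.8 (at least 1.51-fold higher), and did not pass the filter on its own. The probe sets of Igf2 thus had the same direction and sizes that differed widely.

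Igf1, which later becomes the principal growth hormone-dependent IGF, stayed dim but was higher at day 15 with all 4 probe sets. The set with the highest mean, 1419519_at, read 33.8 and 96.2 (at least 2.70-fold higher, log2 difference 1.17). The other sets read 2.6 and 158.1, 1.9 and 188.4, and 6.7 and 138.5, with log2 differences of 3.23, 3.51 and 2.77. The set that represents Igf1 had therefore the lowest difference of the 4, and all 4 lay below the control bound of 35.6 before differentiation and above it at day 15.

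Of the receptors, Igf1r was past 2-fold and Igf2r was not. Igf1r, the signalling receptor of both ligands, read 63.2 and 260.3 with the set that represents it (4.12-fold higher, log2 difference 1.80). Probe set 1452982_at read 52.3 and 266.2 (5.09-fold), and 1428967_at read 30.8 and 169.3 (at least 4.76-fold). The last pair of Igf1r probe sets were dim on both arrays: 1452108_at read 14.3 and 43.3, and 1446303_at read 39.3 and 23.1, the opposite direction. The 3 brighter sets thus read higher at day 15 by similar sizes.

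Igf2r, the clearance receptor for IGF2, was within 2-fold by the probe set that represents it, at 241.6 and 405.3 (1.68-fold, log2 difference 0.71). Its other set read 118.8 and 262.4 (2.21-fold, log2 difference 1.05), just past the threshold. Both sets read higher at day 15. A further probe set that names Igf2r together with Airn, the antisense RNA of the same imprinted region, was not used for gene values and read 20.9 and 5.0, below the bound on both arrays.

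**Figure D2:**
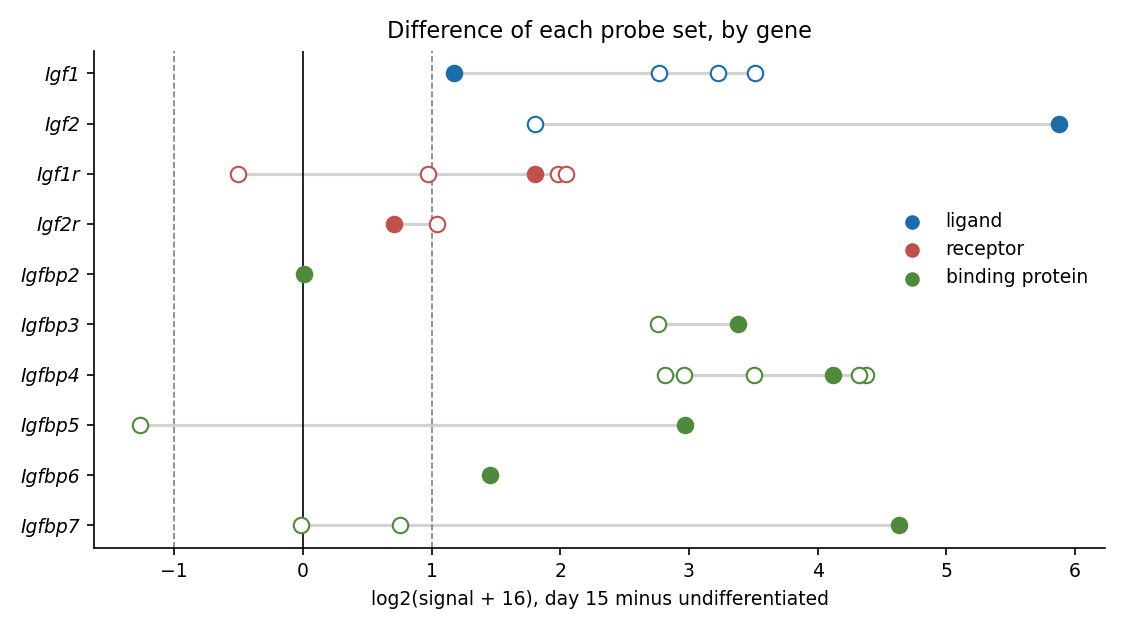
Difference in log2(signal + 16), day 15 minus undifferentiated, of each probe set (points), by gene, with filled points for the set that represents the gene and dashed lines at 2-fold. The sets of Igfbp4 spread from 2.81 to 4.37, all above the upper line, whereas those of Igfbp5 lie at -1.26 and 2.97 and those of Igfbp7 run from -0.01 to 4.63.

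The binding proteins split into genes with high gains, dim genes and Igfbp2. Igfbp4, a binding protein that PAPP-A cleaves, had the gain read by the most probe sets. Its representing set read 128.8 and 2496 (19.4-fold, log2 difference 4.12). The other 5 sets were higher at day 15 too, between 8.79-fold (107.1 and 941.1) and 24.8-fold (78.1 and 1934), with the dimmest at 3.2 and 119.1 (at least 3.35-fold). All 6 sets carry the suffix a, s or x, which marks probes that can match more than a single transcript, so Igfbp4 has no value without such sets.

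Igfbp3, whose product is the main IGF carrier of adult serum, read 232.9 and 2581 (11.1-fold, log2 difference 3.38) and, with its other set, 214.5 and 1549 (7.22-fold). Its probe sets read nearly alike in undifferentiated cells and were both several-fold higher at day 15. Igfbp7, a relative of this family with low affinity for IGFs that is found in vessels and matrix, read 139.2 and 3836 with probe set 1423584_at (27.6-fold, log2 difference 4.63). Its other sets did not share that size: 1423585_at read 29.3 and 60.5 (at least 1.70-fold), and 1437804_at read 3.4 and 3.2, below the bound on both arrays.

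Igfbp2 and Igfbp5 are neighbours on chromosome 1 with no other protein-coding gene between them in the RefSeq table, and they read differently. Igfbp2, a binding protein abundant in the early embryo, was bright on both arrays, at 4008 and 4031 (log2 difference 0.01), by its only probe set. Igfbp5, a binding protein that attaches to matrix, had 2 probe sets of opposite direction. Probe set 1452114_s_at read 10.7 and 193.4 (at least 5.43-fold higher), and 1422313_a_at read 99.6 and 32.2 (at least 2.80-fold lower). Their mean log2 values were equal at 2 decimals (6.22), so which of them represents the gene turns on very little. The gene read -1.60 with a pseudocount of 1, -1.47 with quantile normalization and -1.51 with scaling on the hybridization controls, since each of these settings picked the other set. The count of 8 genes higher holds Igfbp5, whose direction these data do not settle.

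Igfbp6, a binding protein that prefers IGF2, was dim, at 24.2 and 94.3 (at least 2.65-fold higher, log2 difference 1.46), by its only probe set. With a pseudocount of 64 its log2 difference was 0.84, short of the 2-fold threshold. Igfbp1, which lies beside Igfbp3 on chromosome 11 and is made mainly by liver and decidua, did not pass the filter. It read 4.2 and 39.3, at least 1.10-fold higher and close to the bound at day 15. Of the adjacent pair Igfbp1 and Igfbp3, both read higher at day 15, while of Igfbp2 and Igfbp5 a clear direction was seen for neither.

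**Figure D3:**
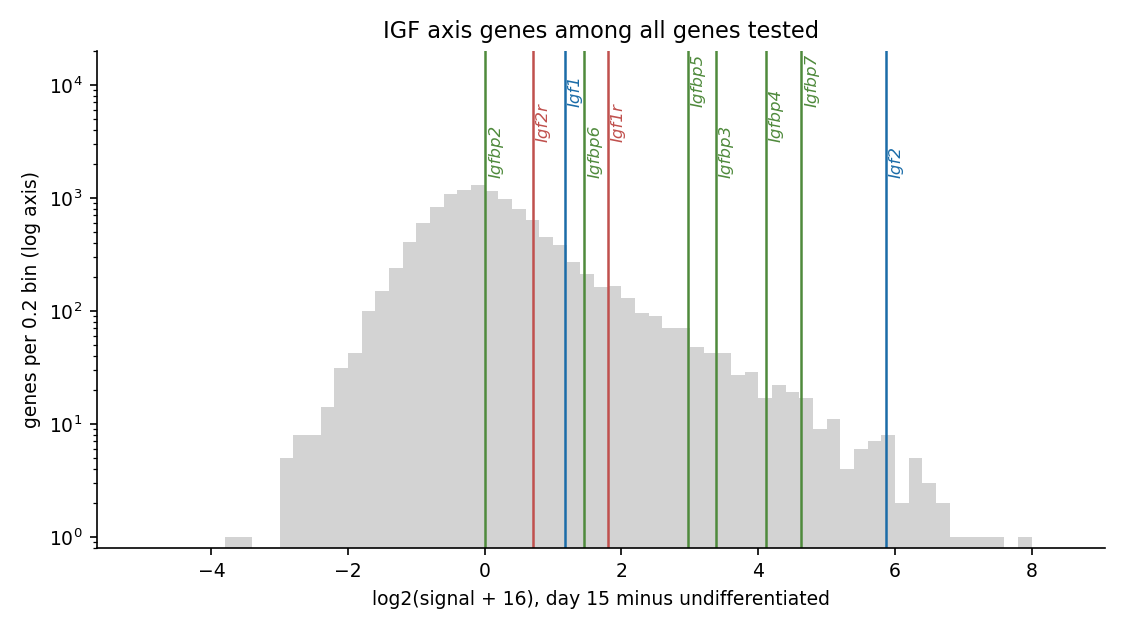
Log2 difference of all 11960 genes tested (grey, counts per bin on a log axis), with the 10 IGF axis genes as vertical lines (blue ligands, red receptors, green binding proteins). Igfbp2 sits at the centre (0.01), Igf2r at 0.71 and Igf2 far out on the right at 5.87, with 21 genes beyond it.

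Set among all genes tested, Igfbp7 had a larger log2 difference than 99.3% of them, Igfbp4 than 98.9%, Igfbp3 than 98.0% and Igf1r than 92.1%. Igf2r exceeded 77.6% and Igfbp2 50.4%. The 3 genes with log2 signals nearest to those of Igf2 over the 2 arrays, by Euclidean distance, were Dlk1, which is imprinted too (101.7 and 10932, distance 0.51), Col4a1, a basement membrane collagen (213.9 and 8177, distance 0.54), and Col5a1, a fibrillar collagen (140.7 and 6208, distance 0.62). With 2 arrays this likeness says no more than that the signals lay close together.

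Other genes of IGF and insulin signalling were described from a list of 52, of which 46 were measured and 39 passed the filter. Past 2-fold were 16 of the 39 in the higher direction at day 15 and 1 in the lower, beside the 16.5% and 8.41% of all genes tested, and the median log2 difference was 0.71. Of the 16, Pappa and Stc1 were below the filter level of 36.5 in undifferentiated cells (1.4 and 24.8). They passed through day 15 alone, so they had to read higher there. With the mean over probe sets, 34 of these genes were tested and 10 were higher, beside 13.0% of all genes.

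Among genes listed as proteases of binding proteins, or as the stanniocalcin inhibitors of PAPP-A, 6 of 7 were higher, beside 16.5% of all genes. Pappa2, named here after its values were seen, was not higher (54.3 and 25.5). Of the 6, Pappa and Stc1 passed the filter through day 15 alone, and Pappa2 passed through the undifferentiated array alone. Pappa, which encodes PAPP-A, the protease of IGFBP4 and IGFBP5, read 1.4 and 564.7 (at least 15.9-fold higher), while its other probe sets read 2.8 and 49.3, and 2.8 and 28.4. The matrix metalloproteinase gene Mmp2 read 119.1 and 2041 (17.1-fold), Adamts1 75.2 and 691.4 (9.19-fold) and the serine protease gene Htra1 822.3 and 2825 (3.44-fold). The inhibitor genes Stc1 (24.8 and 105.4, at least 2.96-fold) and Stc2 (85.9 and 194.8, 2.27-fold) were past the threshold. Another Stc1 set was dark on both arrays and another Stc2 set read 104.5 and 106.9. Stc2 was no longer past 2-fold under either other scaling.

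All 4 measured genes of imprinted and growth hormone regulation were higher, beside 16.5% of all genes tested. Hmga2, a chromatin protein of embryonic growth, read 208.9 and 6177 (29.6-fold). The growth hormone receptor gene Ghr, which drives Igf1 in liver, read 81.9 and 1290 (15.8-fold), and all 3 of its sets were higher. Plagl1, an imprinted zinc finger factor, read 1037 and 12831 (12.4-fold) with a set of suffix x. The other Plagl1 sets read 34.5 and 2250 (at least 63.2-fold higher), and 5.4 and 14.0, below the bound on both arrays. Grb10, an imprinted adaptor that restrains insulin and IGF receptors, read 354.1 and 1108 (3.13-fold). The other Grb10 sets, at 18.5 to 19.1, did not differ between the arrays. Igf2bp3, an IGF2 mRNA-binding protein of the fetus, was 2.04-fold higher (718.7 and 1468), and all 6 of its sets were higher, but its log2 difference was 0.63 with scaling on the hybridization controls. Its relative Igf2bp1, named here after its values were seen, read lower with all 4 sets, at 2947 and 1713 for the set that represents it (log2 difference -0.78). The log2 differences of its other sets were -1.24, -2.18 and -0.55. With scaling on the hybridization controls Igf2bp1 came to -1.16, past the threshold.

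Genes that act inside the cell had calls in both directions. The insulin receptor substrate gene Irs1 read 41.7 and 1041 (25.0-fold higher), by a single probe set, whereas the docking protein gene Gab1 was 3.83-fold lower (2538 and 663.4) with similar sizes in all 3 of its sets. Akt1, a kinase downstream of PI3K, was 3.86-fold higher (714.9 and 2757), with a further set at 311.2 and 1474 and 2 dimmer sets that were nearly flat. Pik3r3, a regulatory subunit of PI3K, was 3.58-fold higher (95.5 and 341.5), Foxo3 2.74-fold (298.3 and 816.0) and Tsc1, an inhibitor of mTOR signalling, 2.38-fold (102.5 and 243.6). Another Foxo3 set read 261.5 and 495.4 (1.89-fold), and a dim set below the bound on both arrays read 24.5 and 7.0. A second bright Tsc1 set read 103.1 and 83.0, and Tsc1 was within 2-fold under either other scaling. Of 9 PI3K and AKT genes 7 lay within 2-fold, and of 10 FOXO, TSC and mTOR genes 8 did, which is near the share of all genes tested (8979 of 11960). The insulin receptor gene Insr (59.3 and 130.4, log2 difference 0.96) fell short of the threshold on the log2(signal + 16) scale.

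**Figure D4:**
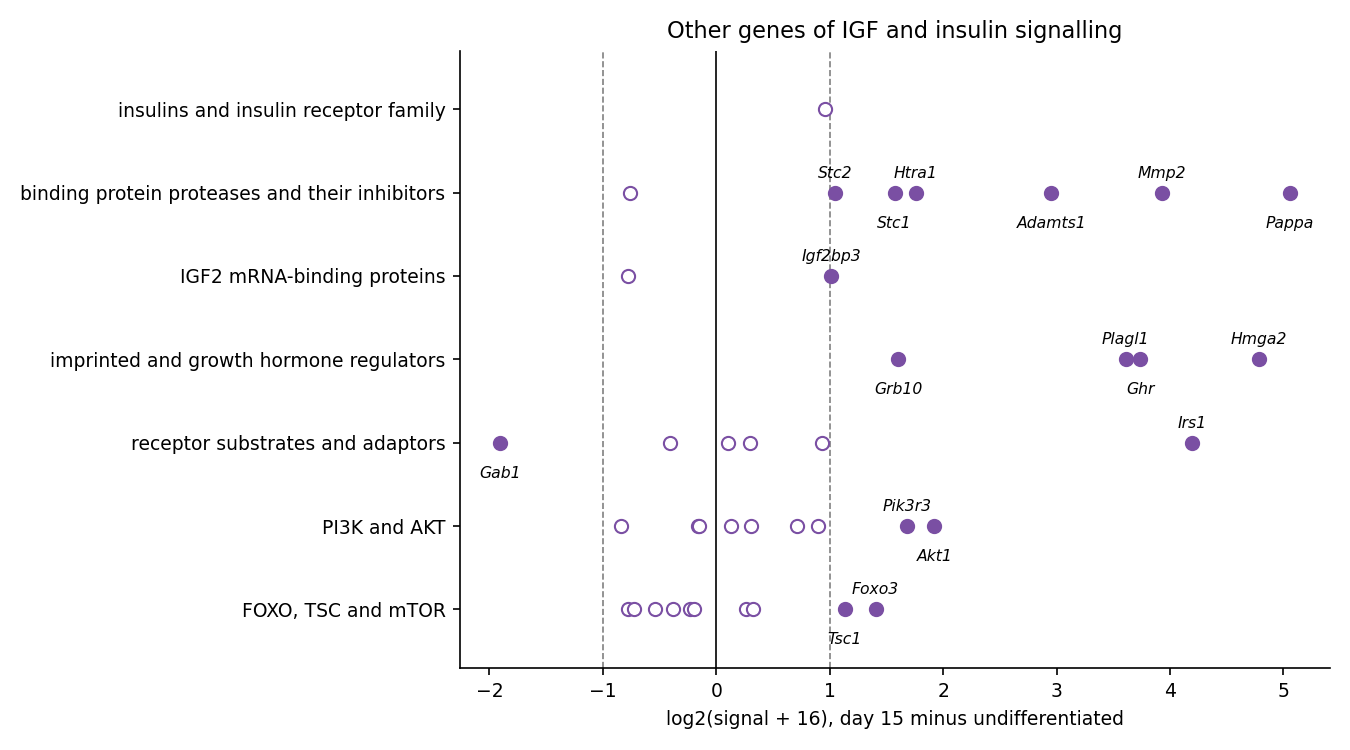
Log2 difference, day 15 minus undifferentiated, of the 39 other genes of IGF and insulin signalling that passed the filter, by group, with names for genes past 2-fold (filled, dashed lines). The proteases and the imprinted and growth hormone regulators lie mostly to the right, up to Pappa at 5.06, while most FOXO, TSC and mTOR genes lie between the lines and Gab1 is alone beyond the lower line at -1.91.

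Markers of other cell types did not all go the same way. The counts below stand beside 16.5% of all genes tested called higher and 8.41% called lower. Of 11 markers of feeder fibroblasts and mesenchyme, a source of IGFs and binding proteins, 10 passed the filter, 9 of them past 2-fold in the higher direction at day 15. Their summed signal was 423 in undifferentiated cells and 33188 at day 15. On the undifferentiated array 6 of the 11 lay below the control bound, among them Col1a1 (17.2) and Pdgfra (4.3). Thy1 was nearly equal on both arrays (143.5 and 144.5), and Fap lay below the bound on both and did not pass the filter. Without Thy1 and Fap the summed signal was 263.4 in undifferentiated cells and 33032 at day 15. Smooth muscle markers summed to 1231 and 28919. Of these, 5 of 5 that passed the filter were higher, and Myh11 lay below the bound on both arrays (19.1 and 26.3). Visceral endoderm markers summed to 400 and 2858, and of the 8 that passed the filter 4 were higher, with Afp at 1.1 and 870.4. The other 4 were not past the threshold, among them Amn (154.2 and 72.0) and Foxa2 (37.1 and 45.5). Hnf4a, which read lower with every set, did not pass the filter. Endothelial markers summed to 653 and 509, and of the 5 that passed the filter 1 was past 2-fold higher and 2 lower. Flt1 (27.4 and 109.6) was the higher gene, and Pecam1 (234.1 and 106.5) and Esam (222.0 and 67.5) were the lower ones. Leukocyte markers summed to 1265 and 998, yet of the 4 that passed the filter 2 were past 2-fold higher and 0 lower, with a median log2 difference of 0.51. Col1a1, Lum, Postn, Pdgfra, Pdgfrb, Cnn1, Actg2, Afp, Ttr, Gata6, Sox17, Flt1 and Tyrobp were below the filter level of 36.5 in undifferentiated cells. These markers passed through day 15 alone, so they had to read higher there. No marker in these lists was listed at 0 on either array. Pluripotency markers summed to 44840 and 21384, with 7 of 10 at least 2-fold lower, so the labels match these markers while stem cell transcripts were still present at day 15. The part of these cell types in the IGF differences was not tested, and in bulk RNA more cells of a type and more RNA per cell cannot be told apart.

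The scaling of the arrays bears on the sizes. As deposited, 66.3% of all genes past 2-fold were higher at day 15, against 54.6% with quantile normalization and 37.7% when the arrays were matched on the 18 bacterial hybridization controls. These scalings put the median of all genes at -0.13 and -0.36. Of the 8 IGF axis genes called higher, 6 stayed so under each of these scalings, where 13.8% and 11.3% of all genes tested were higher. Igf1 came to 0.98 and 0.84 and Igfbp5 changed sign as above. Igfbp2 came to 0.20 and -0.38, so no direction can be given for it.

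**Figure D5:**
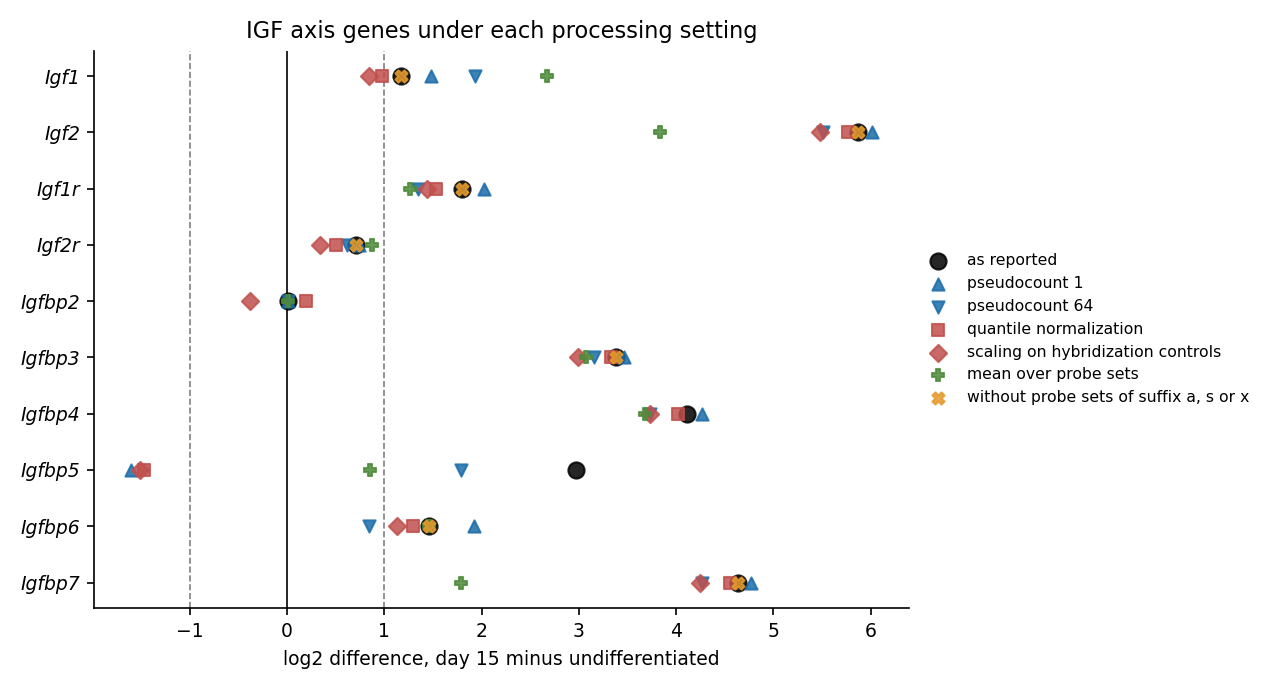
Log2 difference of each IGF axis gene as reported (black circles) and under 6 other settings (coloured marks; 5 for Igfbp2, Igfbp4 and Igfbp5, which have no probe set without suffix a, s or x), with dashed lines at 2-fold. The marks of Igfbp4 lie close together (3.68 to 4.27), those of Igf2 and Igfbp7 are pulled down with the mean over probe sets (3.84 and 1.79), and those of Igfbp5 lie on both sides of 0.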

How the data were processed

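The deposited table gives a linear signal intensity for each of 45101 probe sets on each array. How the authors summarised and scaled the deposited intensity values is not stated in the sources used here; the mean after removing 2% of values at each end was 250.0 on both arrays. The number of arrays limits the precision. After 64 control probe sets were set aside, 34945 of 45037 named 1 gene in the platform annotation, and symbols were updated through RefSeq (GRCm38.p6). Values were used as log2(signal + 16). Each gene took its probe set with the highest mean log2 over both arrays, and genes below the median probe set by that mean were not counted. Calls were made by size alone (2-fold), with no p-value. Probe sets of 1 gene differed with an SD of 0.53 over 5159 genes, of which 30.1% held sets of both directions; this SD covers no variation between cultures.

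The members, lists, thresholds and control bound were chosen with earlier results of these data known. Named were all 10 members, each listed pathway gene past 2-fold, the gene with the largest absolute difference in a group with none, and the 3 genes nearest to the member with the largest difference. The alternatives were pseudocounts of 1 and 64, quantile normalization, scaling on hybridization controls, averaging a gene's probe sets, dropping those with suffix a, s or x, no filter, and a filter at percentile 75. Python 3.11.15, numpy 2.4.6, pandas 2.3.3 and matplotlib 3.10.9 were used.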

Additional observations from a re-analysis of the deposited data

How the results depend on the processing

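No setting has replicate error behind it, and a value is said to have moved where it differed by over 0.53, the SD between probe sets of a gene, or a count by over 1.5 times. Of 57 gene values under 6 settings, 46 did not move. Igfbp5 turned to -1.60 with a pseudocount of 1, -1.47 with quantile normalization and -1.51 with scaling on hybridization controls, because its other probe set then had the higher mean. The count of IGF axis genes lower at day 15 became 1 under each of these 3 settings for that reason, beside 9.91%, 11.4% and 18.8% of all genes tested. The count higher was 4 with the filter at the 75th percentile, where 6 of the genes were tested, beside 13.0% of all genes. The median of the IGF axis genes was 1.86 with a pseudocount of 64, 1.41 with quantile normalization, 1.28 with scaling on hybridization controls, 1.62 with the mean over probe sets, 1.80 without suffixes a, s or x (7 genes) and, for the 6 genes above the 75th percentile, 3.75. Of the other signalling genes, 10 were higher with the mean over probe sets, beside 13.0% of all genes tested. With scaling on hybridization controls 5 of 39 were lower, beside 18.8% of all genes. The count lower was 2 with a pseudocount of 1, quantile normalization, the mean over probe sets or no filter. The shares of all genes lower there were 9.91%, 11.4%, 6.56% and 7.56%. All genes tested had 1358 higher and 2248 lower calls with scaling on hybridization controls, against 1975 and 1006 as reported. Dim signals limit Igf1, Igfbp5 and Igfbp6, whose representing probe sets lay below the control bound before differentiation. The other Igfbp5 set read 99.6 on that array, above the bound.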

Other observations

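The RNA controls added before labelling differed between the arrays. The 6 probe sets for the Bacillus Dap control read 4158 to 15243 on the undifferentiated array and 0.4 to 18.1 on the day 15 array, and the 6 for the Lys control read 0.4 to 15.3 and 5124 to 11560. The part of this in the IGF axis values was not tested.

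Insulin-like genes outside the axis were dark or dim. Ins2, which lies beside Igf2 on chromosome 7, read 14.1 and 21.3, the insulin receptor-related gene Insrr 28.7 and 4.9, and Igfals, the serum carrier subunit, 12.4 and 2.2, all below the control bound of 35.6 on both arrays. Irs2, a receptor substrate like Irs1, read 5.9 and 5.5 by its only probe set. These genes were named after their values were seen.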
